A study of Mus musculus with 6 samples.

Results

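The genes described here are Id1, Id2, Id3 and Id4, 4 of the 28880 genes named on an Illumina mouse bead array. They were chosen by name, as the probes whose symbol in the scanner tables is Id1, Id2, Id3 or Id4. This gave 5 of 45281 probes, 2 for Id2 and 1 for each of the others, and all 5 were above background (detection p-value under 0.05) on at least 3 arrays and were tested. Another 2 probes carry the older symbols Idb2, for Id2, and Idb4, for Id4, and their values are given beside the others. The study compared the luminal epithelium of the mouse uterus, taken 3.5 days post coitum, between 3 samples with a conditional knockout of Alk3 (CKO, replicates D, E and F) and 3 Control samples (replicates A, B and C), 1 array each.

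Alk3, whose gene symbol is Bmpr1a, is 1 of the type I receptors through which bone morphogenetic proteins (BMPs) signal. The CKO females were Alk3 flox/flox and Pgr cre/+. Their loxP sites flank exon 2 of Alk3, which encodes part of the extracellular domain, and Cre is made from a knockin at the progesterone receptor locus (Pgr), so deletion takes place in cells that express Pgr, which in the uterus include stroma and muscle as well as epithelium. Both groups had a hybrid C57BL/6J and 129S5/SvEvBrd background. The labels call the other group only Control, and do not say which of the alleles those mice carried, how the epithelium was isolated, at what age the mice were taken, or whether each array held RNA of a separate animal. The p-values therefore measure the spread between these samples, which may be technical. All 6 arrays were on 1 chip, with Control at positions A to C and CKO at positions D to F, so the effects of chip position and of group cannot be told apart.

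The 4 ID proteins are helix-loop-helix proteins without a DNA-binding region. They pair with E proteins, the broadly expressed basic helix-loop-helix (bHLH) factors, and so keep them from binding DNA with tissue-specific bHLH partners. BMPs bind type I and type II receptors, the type I receptor phosphorylates SMAD1, SMAD5 or SMAD9, and these enter the nucleus with SMAD4. Id1, Id2 and Id3 are among the best known genes that these SMADs switch on directly, and Id4 responds to BMPs in several cell types. In the mouse uterus, BMP signalling acts in the days around embryo attachment and in the stroma that then decidualises.

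Promoter sequences of 300 bases, 250 before and 50 after the gene start, were at hand for Id2, Id3 and Id4 (RefSeq, build GRCm38.p6). They show only the sequence next to the gene start, and SMAD-bound elements farther away would not appear in them. Capitals mark every match, on either strand, to short motifs known to bind SMADs. These were the GC box GGCGCC with its variant form, which reads GGAGCC, and the SMAD binding element, which reads GTCTG. Each is printed 5′ to 3′ along the gene's strand. Id2 lies at chr12:25096043-25096342 on the minus strand, Id3 at chr4:136143572-136143871 on the plus strand and Id4 at chr13:48260866-48261165 on the plus strand.
Id2: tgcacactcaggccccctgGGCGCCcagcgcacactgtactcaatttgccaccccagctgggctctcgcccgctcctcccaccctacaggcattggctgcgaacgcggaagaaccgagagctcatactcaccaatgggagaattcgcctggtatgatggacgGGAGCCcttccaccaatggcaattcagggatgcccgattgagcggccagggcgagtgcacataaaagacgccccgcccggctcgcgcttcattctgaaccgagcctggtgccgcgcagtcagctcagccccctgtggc
Id3: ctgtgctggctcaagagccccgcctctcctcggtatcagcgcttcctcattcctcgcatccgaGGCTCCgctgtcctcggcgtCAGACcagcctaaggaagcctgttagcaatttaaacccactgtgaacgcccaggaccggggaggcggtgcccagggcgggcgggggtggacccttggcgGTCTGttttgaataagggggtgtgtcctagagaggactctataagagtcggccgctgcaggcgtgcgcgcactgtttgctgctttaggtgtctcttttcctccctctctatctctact
Id4: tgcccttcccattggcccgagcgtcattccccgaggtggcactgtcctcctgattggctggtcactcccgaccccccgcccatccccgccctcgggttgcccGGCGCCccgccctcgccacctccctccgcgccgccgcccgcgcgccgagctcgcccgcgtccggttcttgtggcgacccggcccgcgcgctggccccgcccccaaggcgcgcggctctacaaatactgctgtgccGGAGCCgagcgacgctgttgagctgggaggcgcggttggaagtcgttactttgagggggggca

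The Id2 window held the GC box at position -231 and its variant form at position -88 from the gene start. The Id4 window held the same pair, the GC box at -148 and the variant at -13. The Id3 window held the variant at -187 on the reverse strand and the SMAD binding element at -167 (reverse) and -68. Over 32851 mouse promoters of the same length, 11.9% held the GC box, 30.8% its variant and 49.6% the SMAD binding element. The E-box CANNTG, the site bound by the factors that ID proteins hold back, was found once, at -196 of Id2, against 72.3% of all promoters. TATAAA, found in 13.6% of all promoters, was in none of the 3 windows. GC content was 63.3% for Id2, 60% for Id3 and 73.3% for Id4, against a median of 52.7% over all promoters. These matches describe letters in a window and were not set against the expression values by any test.

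Id1, Id2 and Id3 had a lower mean in CKO than in Control, with log2 differences from -1.40 to -0.96, and Id4 was not above background on any CKO array, at least 2.31-fold lower than in Control. None of the 4 passed the test across all genes. Id2 was lower on every CKO array than on every Control array, as was Id4, which the filter kept only through its Control readings. Id1 and Id3 were lower on all 3 CKO arrays than on Control arrays B and C. Control array A was lower than every CKO array for Id1 and lay among them for Id3. Signals below are raw bead averages and normalised log2 values, in which an offset makes the differences of dim probes smaller than they are. Across all 11942 genes tested, 51.7% had a lower mean in CKO, the median difference was -0.01, and 0% (0 genes) passed as lower at an adjusted p under 0.05. At an unadjusted p under 0.05, 239 genes were lower, 2% of those tested.

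**Figure D1:**
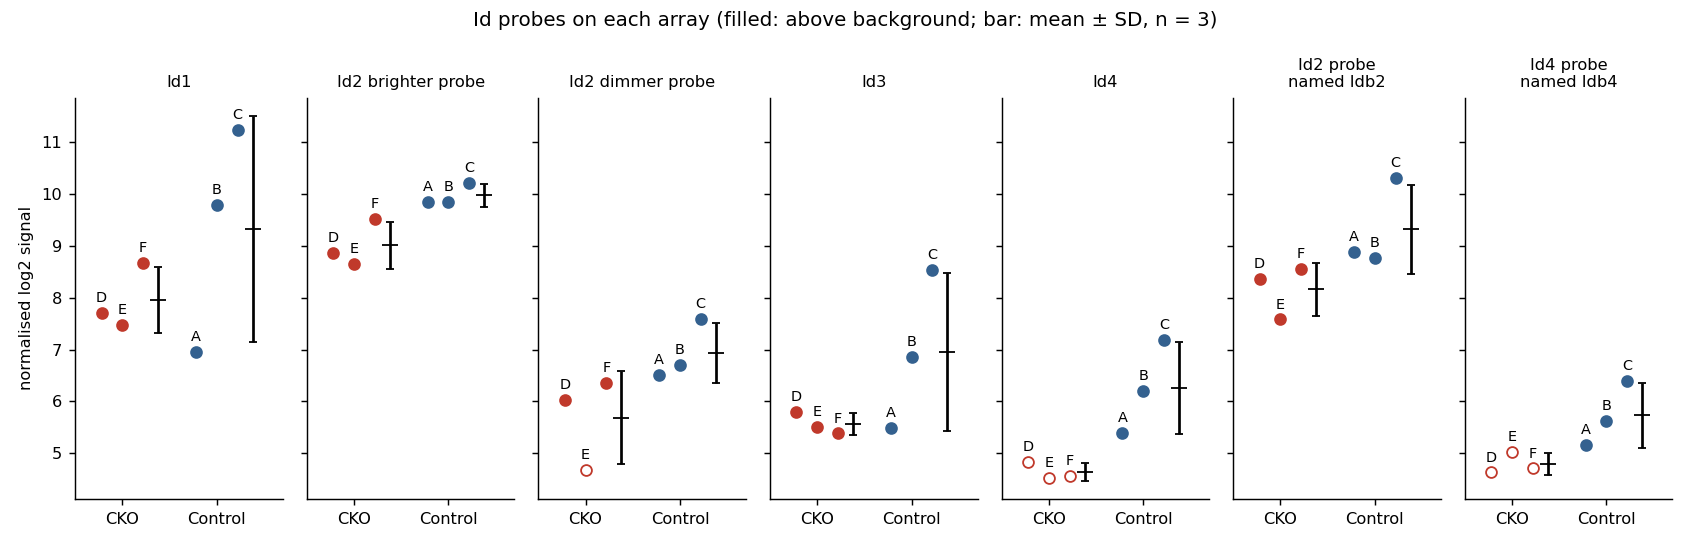
Normalised log2 signal of the 7 Id probes, 1 panel a probe, with the CKO arrays (red, D, E, F) left of the Control arrays (blue, A, B, C). Filled points were above background, open points were not, and black bars give the mean ± SD of each group. Id2 and Id4 separate the groups on each of their probes, which the filter fixed for Id4, whereas Control array A lies with or below the CKO arrays for Id1 and Id3. Levels of different panels are not comparable, since each probe has its own brightness.

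Id2, an ID protein best known for its parts in the mammary gland and in lymphoid cells, was represented by the brightest of its probes, ILMN_1228557. The raw signal was 483.5, 467.7 and 742.9 on CKO arrays D, E and F, against 1064, 1054.6 and 1229.6 on Control arrays A, B and C. The normalised log2 signal was 8.86, 8.65 and 9.51 in CKO, against 9.85, 9.85 and 10.22 in Control. The Control arrays lay close together and all above the CKO arrays, of which F came nearest. The mean was 9.01 ± 0.45 in CKO and 9.97 ± 0.21 in Control (SD, n = 3 each), a difference of -0.96 (SE 0.27, 95% confidence interval -1.60 to -0.33). On this scale Id2 was 1.95-fold lower in CKO. With arrays weighted by quality the difference was -0.54. The unadjusted p was 0.00936 and the adjusted p 0.977 (limma, Benjamini-Hochberg over all genes). The exact permutation p was 0.1, the smallest that 3 against 3 arrays can give.

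The dimmer Id2 probe, ILMN_2887239, read 6.02, 4.68 and 6.36 in CKO, against 6.51, 6.70 and 7.59 in Control, on the log2 scale. Its reading on CKO array E was not above background (detection p-value 0.177). The groups again did not overlap, with a difference of -1.24 (SE 0.49). The probe named Idb2, ILMN_1236868, read 8.36, 7.58 and 8.55 in CKO, against 8.88, 8.76 and 10.30 in Control, a difference of -1.15 (SE 0.47). Single arrays moved both by over 1.5 times, to -0.74 for the dimmer probe without CKO array E and to -0.66 for the Idb2 probe without Control array C. All 3 Id2 probes thus placed E lowest, F highest of the CKO arrays and C highest of all arrays. Each had an exact permutation p of 0.1 and an adjusted p of 0.985 in limma's fit over 17291 probes, of which 0% passed as lower.

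Id4, the member most studied in neural progenitors, mammary epithelium and the germ line, was measured near background. Its probe ILMN_2678714 gave a raw signal of 83.8, 75 and 75.2 in CKO, against 107.2, 143.4 and 199.8 in Control. The log2 signal was 4.83, 4.52 and 4.57 in CKO, against 5.39, 6.21 and 7.18 in Control. None of the 3 CKO readings and all 3 Control readings were above background, so the CKO level has only an upper bound. Against that bound, the lowest signal above background on each CKO array, Id4 was at least 2.31-fold lower in CKO. The measured means were 4.64 ± 0.17 in CKO and 6.26 ± 0.89 in Control (SD, n = 3 each). Their difference was -1.62 (SE 0.43, 95% confidence interval -2.66 to -0.58), with an unadjusted p of 0.00801 and an adjusted p of 0.977 (limma). The exact permutation p was 0.1. These values do not test the direction, which the filter fixed, and the SE and interval rest on CKO readings below background.

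The probe passed the filter only through the Control arrays, and a probe of that kind was bound to lie lower in CKO. The probe named Idb4, ILMN_1232416, showed the same split, with 0 CKO arrays and 3 Control arrays above background. It read 4.63, 5.03 and 4.71 in CKO, against 5.17, 5.63 and 6.39 in Control, at least 1.60-fold lower in CKO. Array C was again the highest and array A the lowest of the Control arrays, as for the first Id4 probe.

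Id1, the member most often used as a readout of BMP signalling, varied most within Control. Its probe ILMN_2672190 gave a raw signal of 243.8, 241.5 and 442 in CKO, against 198.8, 1020.6 and 2387.1 in Control. The log2 signal was 7.70, 7.47 and 8.68 in CKO, against 6.95, 9.79 and 11.23 in Control. Control array A was the lowest of all 6 and Control arrays B and C the highest, so the CKO arrays lay inside the range of the Control arrays. The mean was 7.95 ± 0.64 in CKO and 9.32 ± 2.18 in Control (SD, n = 3 each). The difference of -1.37 (SE 1.03) had a 95% confidence interval from -3.83 to 1.09, an unadjusted p of 0.226 and an adjusted p of 0.977 (limma). The exact permutation p was 0.4.

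Id3, which shares its roles in the vessels and brain of mouse embryos with Id1, had the same order of Control arrays. Its probe ILMN_2687169 gave a raw signal of 108.9, 107.7 and 97.6 in CKO, against 110.8, 188.9 and 420.9 in Control. The log2 signal was 5.79, 5.51 and 5.38 in CKO, against 5.49, 6.86 and 8.53 in Control. The CKO arrays lay within a narrow band in which Control array A also fell, below CKO arrays D and E. The mean was 5.56 ± 0.21 in CKO and 6.96 ± 1.52 in Control (SD, n = 3 each). The difference of -1.40 (SE 0.70) had a 95% confidence interval from -3.08 to 0.29, an unadjusted p of 0.0897 and an adjusted p of 0.977 (limma). The exact permutation p was 0.3.

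Ordered by p among the 11942 genes, Id2 stood at place 104, Id3 at 1029 and Id1 at 2667. Id4 is left out of this order, since 16 genes were above background on Control arrays only, and all 16 lay wholly below Control in CKO. Of the 3 Id genes above background in both groups, 1 (Id2) lay wholly below Control, as did 582 (4.9%) of 11866 such genes. Over all genes tested the share was 5.01%. Exact permutation of 3 against 3 arrays cannot give a p under 0.1. It thus could not show 1 Id gene to differ more between the groups than another. The 6 pairwise differences between their log2 differences, with Id4 at its measured means (below background in CKO), ran from -0.41 for Id1 minus Id2 to 0.66 for Id2 minus Id4, with exact permutation p-values of 0.3 to 1 and adjusted p-values of 0.96 or more.

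The standard error of a bead average, a reading error within 1 array, was 3.28% to 8.59% of the raw signal over the 5 probes, from 26 to 51 beads a reading. The highest raw Id1 signal was 1.83 times the lowest in CKO and 12 times the lowest in Control. For Id3 these ratios were 1.12 in CKO and 3.80 in Control, and for Id4 1.12 in CKO and 1.86 in Control. Id2 went the other way, with 1.59 in CKO and 1.17 in Control. The CKO readings of Id4, all below background, do not measure a spread between samples. On the log2 scale, 16.7% of all genes tested had a larger SD than Id1 between CKO arrays, 31.1% than Id2 and 70.4% than Id3. Between Control arrays, the SD of Id1 was exceeded by 0.193% of genes, that of Id3 by 0.946%, that of Id4 by 4.29% and that of Id2 by 51.1%. Control samples thus varied more in Id1 and Id3 than in nearly all other genes, though no test of the spread was made.

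Control array A decided how far Id1 and Id3 separated the groups. Without it, the Id1 difference was -2.56 (SE 0.55, unadjusted p 0.00407) and the Id3 difference -2.13 (SE 0.50, unadjusted p 0.00592), both with an adjusted p of 0.927 in limma. The Id2 difference was then -1.02 (SE 0.32). All 3 Id genes still tested then lay lower on every CKO array than on both remaining Control arrays, as did 1324 of 11702 genes (11.3%). Id4 could not be tested without any 1 of the Control arrays, since it was then above background on too few. Control array C had the opposite weight. Without it, the Id1 difference was -0.42 (SE 0.86) and the Id3 difference -0.61 (SE 0.43), while that of Id2 was -0.84 (SE 0.30). Leaving out any 1 CKO array, or Control array B, moved the difference of no Id gene still tested, on its brightest probe, by more than 1.5 times.

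**Figure D2:**
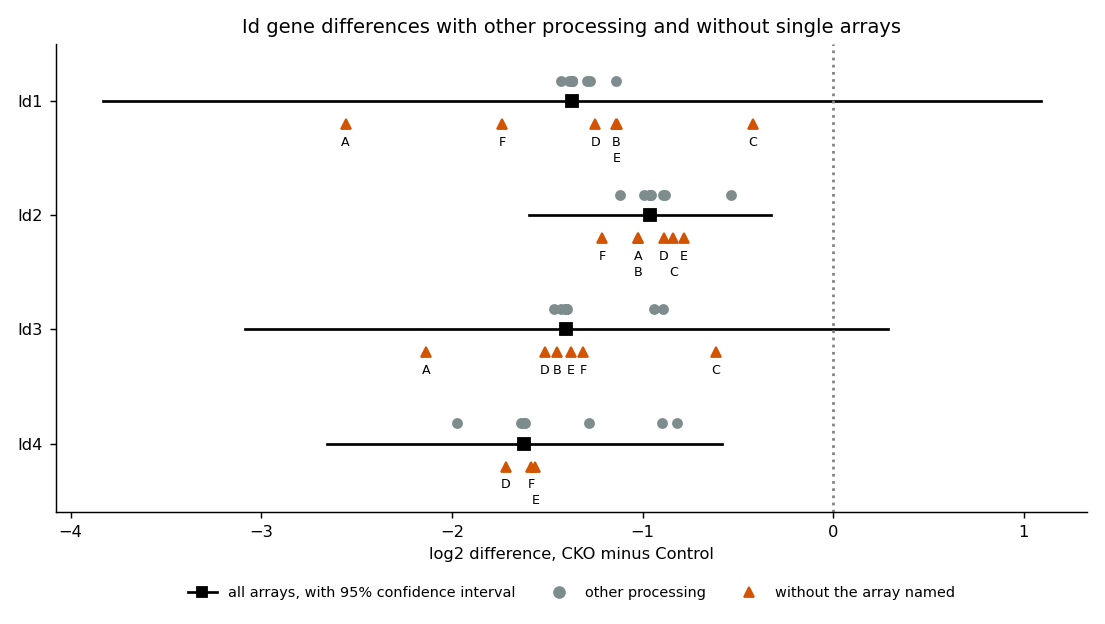
Log2 difference, CKO minus Control, of each Id gene with all arrays (black squares, lines giving the 95% confidence interval), with other background corrections, scalings, filters or fits (grey circles), and without the array named (orange triangles). Every point lies below 0, and leaving out Control arrays A and C gives the outermost points for Id1 (-2.56 and -0.42) and Id3 (-2.13 and -0.61). The points of Id4 are no test of its direction, since Id4 passed the filter only through Control, and its triangles leave out CKO arrays only.

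Array A had the fewest probes above background, 16620, and array C the next fewest, 16710, with up to 17536 on the others. The part of array quality in the Id values was not tested. Median raw signals ran from 79.7 to 87.6 and median beads per probe from 39 to 42. Array E stood apart most, with a mean correlation of 0.936 with the other arrays over all genes tested. Pan-epithelial markers were present: 8 of 9 were tested, Epcam not among them, 6 lower and 2 higher in CKO. The brightest were Krt8 at 13.26 ± 0.21 in CKO and 13.40 ± 0.17 in Control and Cldn3 at 13.98 ± 0.16 in CKO and 13.91 ± 0.09 in Control (SD, n = 3 each). Krt19 varied more, at 10.27 ± 1.30 in CKO and 11.19 ± 0.66 in Control. Such markers do not tell luminal from glandular cells, and the stroma marker Dcn was bright too, at 10.87 in CKO and 11.02 in Control. Of 8 luminal markers 6 were tested, Calb1 and Ctsl not among them, 2 lower and 4 higher in CKO. Their summed linear signal ran from 8169 to 14670 over the CKO arrays and from 6211 to 12490 over the Control arrays. Relative to the mean of the 6 arrays they averaged -0.17, 0.58 and -0.36 log2 units on CKO arrays D, E and F, against 0.46, 0.01 and -0.53 on Control arrays A, B and C. Among the Control arrays they were thus highest on A and lowest on C, where Id1, Id3 and Id4 were lowest and highest. This order was not particular to luminal markers. On A, B and C, smooth muscle markers averaged 0.53, -0.12 and -0.33 and erythroid markers 0.47, 0.14 and -0.75. Pan-epithelial markers averaged 0.15, 0.04 and 0.06, while stroma markers were highest on C.

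Other cell types were present to differing degrees, and fewer cells of a type and less RNA per cell cannot be told apart in such bulk samples. Of 14 stroma markers 10 were measured, 8 of them higher in CKO. Their summed linear signal ran from 1021 to 6949 over the CKO arrays and from 2185 to 3082 over the Control arrays. Pdgfra, Hoxa11, Hand2 and Twist2 were not among the genes tested. The brightest, Dcn, differed by -0.15 (SE 0.67) and Col6a1 by 0.77 (95% confidence interval -1.63 to 3.17), with a sign that turns for Dcn without CKO array F and for Col6a1 with arrays weighted by quality. Relative to the mean of the 6 arrays, the stroma markers averaged 0.90, 0.81 and -0.94 log2 units on CKO arrays D, E and F, against -0.40, -0.40 and 0.04 on Control arrays A, B and C. Id1 and Id2 were lower on D and E, where stroma was high, than on F, where it was low, while Id3 and Id4 were low on all 3. Of 12 endothelial markers 10 were measured, 4 lower and 6 higher in CKO, with summed signals of 6295 to 7683 in CKO and 7662 to 9061 in Control. Most of that sum came from Sox17, which uterine epithelium also expresses and which differed by -0.37 (SE 0.19). The 10 averaged 0.23, 0.78 and -0.70 on CKO arrays D, E and F, against 0.0018, -0.19 and -0.12 on Control arrays A, B and C. Pecam1 and Tie1 were not among the genes tested, and Esam differed by 0.15 (SE 0.49), which turns to -0.66 with array weights. Control arrays A, B and C, with stroma averages of -0.40, -0.40 and 0.04, read 6.95, 9.79 and 11.23 for Id1. Of 8 glandular markers 6 were measured, 3 lower and 3 higher, with summed signals of 590.3 to 4518 in CKO and 626 to 4813 in Control, and Foxa2 was not among the genes tested. They averaged -0.65, 1.12 and -0.56 on CKO arrays D, E and F, against 0.25, 0.46 and -0.61 on Control arrays A, B and C. Of 10 macrophage and dendritic cell markers 7 were measured, 3 lower and 4 higher, with summed signals of 605 to 1566 in CKO and 527 to 992 in Control, and Adgre1, Itgax and Cx3cr1 were not among the genes tested. They averaged -0.47, -0.02 and 0.66 on CKO arrays D, E and F, against -0.58, 0.23 and 0.18 on Control arrays A, B and C. The part of these cell types in the Id differences was not tested.

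Bmpr1a itself had a log2 signal of 8.86, 8.25 and 8.67 in CKO, against 9.26, 9.35 and 8.97 in Control, on its brighter probe. The groups did not overlap, as for 5.01% of all genes in this direction, and the difference was -0.60 (SE 0.22, adjusted p 0.977, limma). On the dimmer probe, which read 5.61, 6.88 and 6.71 in CKO, against 6.61, 7.10 and 7.02 in Control, they overlapped. The sources used here do not place either probe relative to the deleted exon, so neither checks the deletion. The probes did not give the Control arrays 1 order: the brighter was lowest on array C, where all 4 Id genes were highest, and the dimmer was lowest on array A, where Id1, Id3 and Id4 were lowest. Pgr, the locus that carries Cre, read 7.90, 6.78 and 8.36 in CKO, against 7.38, 9.09 and 7.86 in Control, with overlap of the groups.

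Across the 6 arrays the Id genes tended to be high and low together. Control array C had the highest and Control array B the next highest level of each of the 4, although A and B were almost equal for Id2. The average deviation of the 4 from their own means was -0.66, -0.92 and -0.42 on CKO arrays D, E and F, against -0.54, 0.72 and 1.83 on Control arrays A, B and C. Array A was split, at -1.69 for Id1 and -0.77 for Id3 but 0.36 for Id2 and -0.06 for Id4. CKO array F was split as well, at 0.04 for Id1 and 0.02 for Id2 but -0.88 for both Id3 and Id4.

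Pearson's r over the 6 arrays was 0.95 for Id3 with Id4 (p 0.0139) and 0.91 for Id1 with Id3 (p 0.0208), each with an adjusted p of 0.0625 by exact permutation over 720 pairings. It was 0.83 for Id1 with Id4 (p 0.0431) and 0.82 for Id2 with Id4 (p 0.0486), each with an adjusted p of 0.0729 by the same permutation test. For Id1 with Id2 and Id2 with Id3 r was 0.66, with permutation p-values of 0.163 and 0.126 and adjusted p-values of 0.163 and 0.152. By r, Id1 with Id3 and the 3 pairs that hold Id4 thus ranked above the other 2 pairs. Spearman's rho was 0.66, 0.66 and 0.60 for Id1 with Id2, Id3 and Id4, and the permutation p-values were 0.175, 0.175 and 0.242. For Id2 with Id3 rho was 0.54 (permutation p 0.297), for Id2 with Id4 0.94 (p 0.0167) and for Id3 with Id4 0.71 (p 0.136). None of the 6 pairs passed after adjustment over the pairs, with rho for Id2 and Id4 the nearest by rank at an adjusted p of 0.1. All 6 points share the group difference, which is part of each pooled r.

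With the 2 arrays farthest from the median of the first gene left out, which for Id1 and Id3 were Control B and C, r was -0.04 for Id1 with Id2, -0.29 for Id1 with Id3, -0.70 for Id1 with Id4 and 0.11 for Id3 with Id4. Those 4 relations did not hold without arrays B and C. For Id2, where the 2 farthest were CKO arrays D and E, r was 0.88 with Id3 and 0.96 with Id4. Arrays B and C were thus kept in those pairs, and without Control array C alone r was 0.38 for Id2 with Id3. After subtraction of each group's own mean, r was 0.9963 for Id3 with Id4, 0.91 for Id1 with Id4 and 0.90 for Id1 with Id3. It was 0.57 for Id1 with Id2, 0.31 for Id2 with Id3 and 0.35 for Id2 with Id4. The order of these r depended on Control array A. Without it, over 5 arrays, r within the groups was 0.90 for Id1 with Id2, 0.63 for Id1 with Id3 and 0.24 for Id2 with Id3. The differences between these r were not tested, and for Id4 the CKO arrays add only readings below background.

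**Figure D3:**
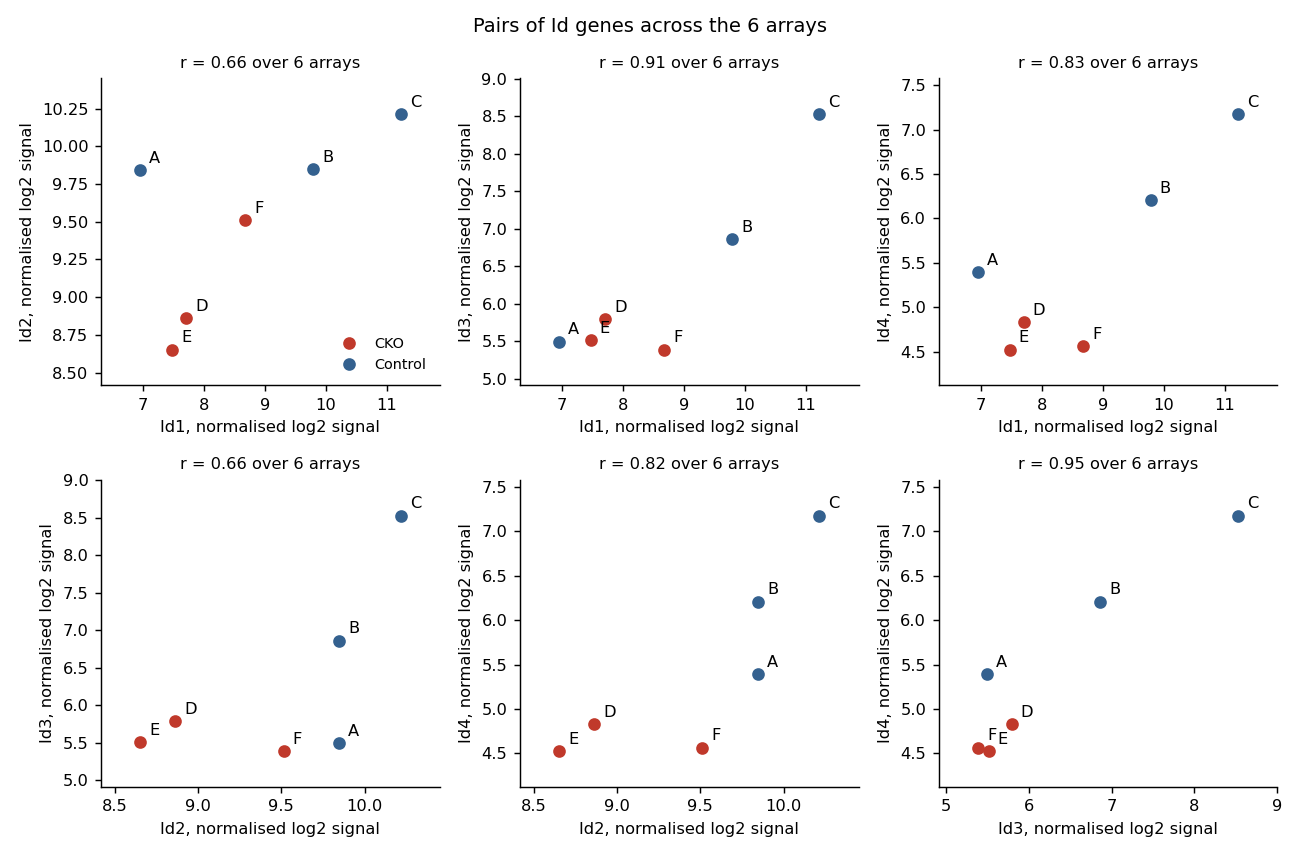
Normalised log2 signal of each pair of Id genes on the 6 arrays, CKO in red and Control in blue, with letters naming the arrays. Control arrays B and C lie at the upper right of every panel, and Control array A joins the CKO arrays on the Id1 and Id3 axes but not on the Id2 axis.

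The genes most like each Id gene were taken as the 5 with the highest r over the 6 arrays. They came from genes with a range of at least 1 log2 unit, with clone and predicted names left out. With those names kept there were 4394 such genes, to which the shares and ranks below refer. Sgk1, a serum- and glucocorticoid-regulated kinase that acts on epithelial sodium transport, was most like Id1 (r 0.9854). It read 10.29, 10.29 and 10.93 in CKO, against 9.12, 11.97 and 13.94 in Control, lowest on array A and highest on C as Id1 was. Spc25, a kinetochore subunit, Cdkn3, a phosphatase of cyclin-dependent kinases, Cers5, a ceramide synthase, and Zdhhc20, a palmitoyltransferase, followed for Id1.

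Map2k6, a kinase upstream of p38, was most like Id2 (r 0.9889), at 7.69, 7.59 and 8.13 in CKO, against 8.25, 8.26 and 8.64 in Control. Anxa5, Ubxn2a, Snurf and Rtn1 followed. Itprid1 was most like Id3 (r 0.9867), at 4.83, 4.52 and 5.09 in CKO, against 4.52, 6.93 and 9.45 in Control, and Adh1, an alcohol dehydrogenase of retinol metabolism, Col12a1, a fibril-associated collagen, Homer2 and Tpgs2 followed. Cdh16, a cadherin of kidney epithelium, was most like Id4 (r 0.986), at 4.93, 4.63 and 4.81 in CKO, against 5.22, 6.61 and 7.33 in Control, and Pheta1, Nudt10, Adgrg2 and Gstk1 followed. No CKO reading of Cdh16 or Nudt10 reached the lowest signal above background, 5.03 to 5.07 on the CKO arrays. Both thus passed the filter only through Control, as Id4 did. In their r with Id4, the CKO arrays add only readings below background. No gene was among the 5 for more than 1 Id gene. An r above 0.9 was reached by 78 genes for Id1 (1.78%), 46 for Id2 (1.05%), 80 for Id3 (1.82%) and 45 for Id4 (1.02%). Among all candidates, Id4 ranked 28 for Id3 and Id3 ranked 18 for Id4, whereas Id2 ranked 579 for Id1.

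**Figure D4:**
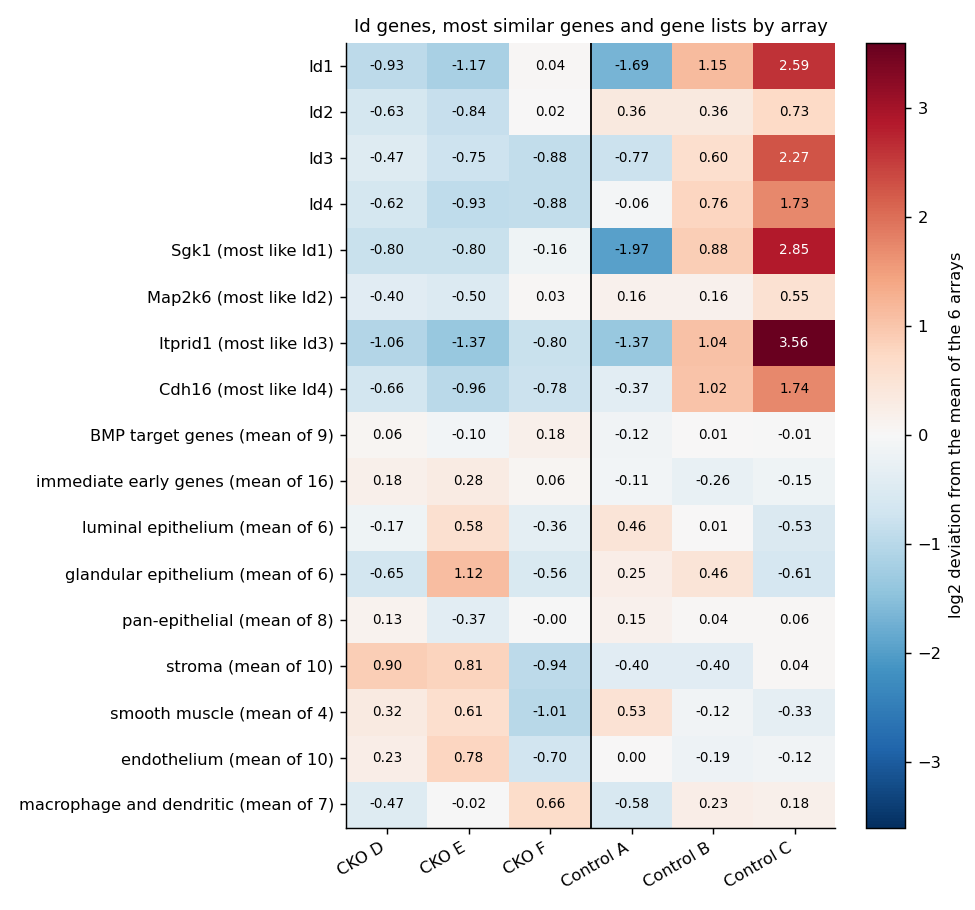
Log2 deviation of each row from its mean over the 6 arrays, with CKO arrays left of Control arrays, for the Id genes, the gene most like each and the average of gene lists. The Id genes are highest on Control array C, as are their nearest genes, which were chosen for likeness over these same arrays. The 9 other BMP target genes average between -0.12 and 0.18 on every array, an average in which members of opposite sign cancel.

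Other known BMP target genes lay on both sides of 0. Of 27 listed, 9 were measured, with 0 past the test. Xiap, an inhibitor of caspases, passed the filter through the Control arrays only, and Fstl1, a secreted follistatin-like glycoprotein, through the CKO arrays only, so their directions were fixed by it. Of the other 7, 4 were lower and 3 higher in CKO, with a median difference of -0.33, beside -0.01 over all genes. Over all 9 the median was Xiap's own difference of -0.29. It ran from -0.33 to -0.017 with other settings, nearest to 0 with no filter, and from -0.42 to 0.10 without single arrays, turning above 0 without CKO array E (0.10) and without Control array C (0.05). Sox9, a transcription factor of progenitor and gland cells, lay higher on every CKO array, at 10.47 ± 0.29 in CKO and 8.89 ± 1.24 in Control (SD, n = 3 each), a difference of 1.58 (SE 0.59), which was 0.87 without Control array C and 0.91 with array weights. Junb, an AP-1 subunit, lay higher by 0.45 (SE 0.20), also without overlap. The share of all genes wholly above Control in CKO was not counted, so these separations have no share to be set beside. Smad6, which feeds back on BMP receptors, and Msx1, a homeobox factor of the uterine epithelium before implantation, had differences of -0.42 (SE 0.27) and -0.34 (SE 0.34), with overlapping groups. Gata2, which works with progesterone receptor in the uterus, had a difference of -0.55 (SE 0.68).

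Of 14 BMP receptors and SMADs, 12 were measured, 8 lower and 4 higher in CKO, with 0 past the test and a median of -0.08 that ran from -0.19 (without CKO array D) to 0.04 (without Control array B) when single arrays were left out. Beside Bmpr1a, the receptors Bmpr1b and Acvr2a differed by -1.12 (SE 0.76) and -0.41 (SE 0.26), with overlap. The receptor Acvr2b differed by -0.23 (SE 0.17) without overlap, as 5.01% of all genes tested did in this direction. The receptor-regulated Smad1 and Smad5 differed by 0.28 (SE 0.23) and 0.43 (SE 0.56). Of 21 ligands and antagonists 5 were measured, 2 lower and 3 higher, with a median of 0.08 that ran from -0.31 (without CKO array D) to 0.65 (without CKO array F) when single arrays were left out. The antagonist Chrd differed by 0.96 (SE 0.42), the ligand Bmp5 by -0.24 (SE 0.22) and Twsg1, which binds BMPs together with Chrd, by -0.15 (SE 0.23), and none of them passed the test.

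The partners of ID proteins were measured as well. All 3 E protein genes were above background, and none passed the test. Tcf3 differed by 0.37 (SE 0.29), Tcf4 by 0.36 (SE 0.48) and Tcf12 by -0.11 (SE 0.27), each with overlapping groups. Tcf3 and Tcf4 turned to -0.16 and -0.05 with arrays weighted by quality. Of 26 tissue-specific bHLH factors, Twist1 alone was measured, at 5.42 ± 0.36 in CKO and 5.36 ± 0.56 in Control (SD, n = 3 each). Of 10 Hes, Hey and Bhlhe repressors 5 were measured, 2 lower and 3 higher, with a median of 0.00081 that ran from -0.22 to 0.33 without single arrays. Among them Hes6 differed by -0.60 (SE 0.27), Hey1 by 0.44 (SE 0.33) and Hes1 by -0.02 (SE 0.28), and 0 passed the test.

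Of 19 genes known to respond to E proteins or ID proteins, 16 were measured, 7 lower and 9 higher in CKO, with a median of 0.03, from -0.14 to 0.08 without single arrays, and 0 past the test. Mmp14, a membrane-bound matrix protease, read 11.49 ± 0.21 in CKO and 12.11 ± 0.22 in Control (SD, n = 3 each), a difference of -0.62 (SE 0.20) without overlap. Cdkn1b, an inhibitor of cyclin-dependent kinases, differed by -0.64 (SE 0.22), also without overlap. Of all genes tested, 5.01% lay wholly below Control in this way. Cdkn1a, an inhibitor of the same family that E proteins switch on, differed by 0.31 (SE 0.34). Cdkn1c differed by -0.22 (SE 0.20) and the cyclin Ccnd1 by -0.46 (SE 0.51), both with overlapping groups.

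**Figure D5:**
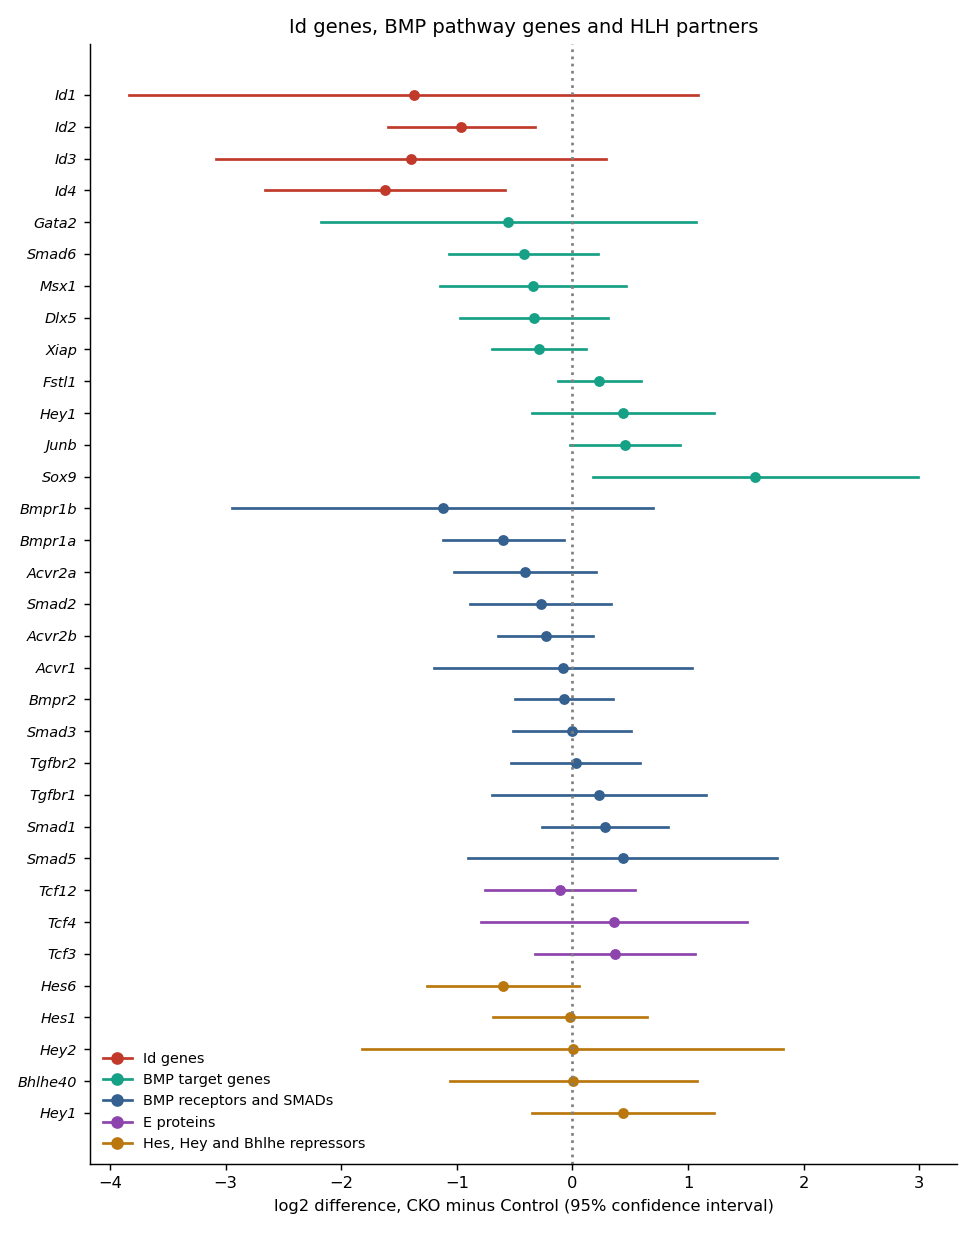
Log2 difference, CKO minus Control, with its 95% confidence interval for the 4 Id genes and for the measured genes of 4 lists (BMP target genes, BMP receptors and SMADs, E proteins, Hes, Hey and Bhlhe repressors). The 4 Id genes all lie left of 0, and the interval of Id2 does not reach it, while the BMP target genes lie on both sides, from -0.55 for Gata2 to 1.58 for Sox9. The interval of Id4 is no test of its direction, since Id4 passed the filter only through Control.

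Immediate early genes, which handling of tissue can switch on and several of which also respond to growth factors, were listed because Id genes respond quickly to such stimuli too. Of 22 listed, 16 were measured, 3 lower and 13 higher in CKO, with a median of 0.34, from 0.25 to 0.40 without single arrays, and 0 past the test. Atf3, a stress-induced transcription factor, differed by 0.96 (SE 0.26), Egr3 by 0.97 (SE 0.34) and Zfp36, which shortens the life of cytokine mRNAs, by 0.46 (SE 0.15), each higher on every CKO array. How many of all genes were higher on every CKO array was not counted. The immediate early list averaged 0.18, 0.28 and 0.06 on CKO arrays D, E and F, against -0.11, -0.26 and -0.15 on Control arrays A, B and C. On the same Control arrays Id1 read 6.95, 9.79 and 11.23, and Id3 5.49, 6.86 and 8.53. The part of this response in the Id differences was not tested.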

How the data were processed

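Total RNA of isolated luminal uterine epithelium was measured on 6 Illumina bead arrays, 3 CKO and 3 Control. Each probe has, per the file headers of the deposited scanner tables, a bead-averaged intensity, its standard error, a number of beads and a detection p-value. The authors' intensity was neither background-subtracted nor normalised between arrays. A deposited table of processed intensity values was used as an alternative. The sources used here do not give the authors' software.

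The neqc function (limma 3.58.1, R 4.3.3) removed background by a normexp fit to negative controls that it infers from detection p-values, added an offset of 16, equalised the arrays' quantiles and took log2. Probes with a detection p-value under 0.05 on at least 3 of 6 arrays were kept, 17291 in all. Names came from a RefSeq table of GRCm38.p6, 29370 probes by accession and 6946 by symbol, with 8947 keeping the file's name and 18 left out. The probe with the highest mean stood for its gene. CKO minus Control was tested two-sided with lmFit and eBayes of limma, at a Benjamini-Hochberg adjusted p of 0.05 over all genes, and steps were tested on simulated data. The number of arrays limits the precision.

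The Id genes and all lists were chosen with earlier results of these data known, and 1 listed gene is not reported here. The genes named were every Id probe, Bmpr1a, Pgr, the 3 members of each list with the smallest p, the 2 brightest members of the stroma and endothelium lists, and the 5 genes most like each Id gene, with clone and predicted names left out. Krt8, Cldn3, Krt19, Acvr2b, Smad1, Smad5, Smad6, Msx1, Gata2, Cdkn1a, Ccnd1 and Fstl1 were named outside this rule after their values were seen. Alternatives were other background corrections, scalings, filters and fits, the mean of probes, array weights and leaving out each array.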

Additional observations from a re-analysis of the deposited data

How the results depend on the processing

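Of 16 alternatives, all left 0 Id genes past the test and kept each Id gene lower in CKO wherever it was tested, with adjusted p-values in limma's gene fit of 0.174 or more. For Id4 the kept sign is no test of direction, since it passed the filter only through Control. With other processing the log2 difference ran from -1.43 to -1.14 for Id1, -1.12 to -0.54 for Id2, -1.46 to -0.89 for Id3 and -1.98 to -0.82 for Id4. Without single arrays it ran from -2.56 to -0.42 for Id1, -1.21 to -0.78 for Id2, -2.13 to -0.61 for Id3 and -1.72 to -1.56 for Id4. The range for Id4 comes only from leaving out CKO arrays. Id3 and Id4 were not above the stricter filter (detection p-value under 0.01 on all arrays), nor Id4 the filter without any 1 Control array. The count of genes higher at the threshold was 2, against 1 with an offset of 50, no background correction, median scaling, cyclic loess or the deposited values, 0 with no filter or the strict one, 5 with array weights, and 0 to 1 without single arrays. The count of lower genes was 0 throughout, beside 239 lower at an unadjusted p under 0.05. Without single arrays, r for Id1 with Id2 ran from 0.398 to 0.972, the highest without Control array A and past the test there (adjusted permutation p 0.025 over 5 arrays). No paired analysis was possible because the groups share no replicate letters.

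Signs turned for differences that were not past the test in any setting. Apart from a change of probe for Nudt10, the cause was not tested. With array weights Bmp5 was 0.103, Col6a1 -0.844, Esam -0.655, Hes1 0.0341, Tcf3 -0.165 and Tcf4 -0.0521. Without single arrays the range was -0.90 to 0.53 for Dcn, -0.24 to 0.74 for Esam, -0.25 to 0.26 for Hes1, -0.80 to 0.0561 for Pgr, -0.35 to 0.0883 for Tcf12, -0.15 to 0.68 for Tcf4, -0.14 to 0.38 for Twist1 and -1.64 to 0.38 for Nudt10. The Nudt10 values above 0 came without single Control arrays and from another of its probes. The probe used for it otherwise then failed the filter, being above background on too few arrays. The difference between 2 Id differences turned to -0.35 (offset of 50), -0.39 (no background correction) and -0.000657 (median scaling) for Id1 minus Id3, to -0.40, -0.46 and, with the mean of probes, -0.0927 for Id1 minus Id4, to -0.0619 (no background correction) for Id2 minus Id4, and to -0.0444, -0.0713 and, with the mean of probes, -0.12 for Id3 minus Id4. Without single arrays it ran from -1.54 to 0.42 for Id1 minus Id2, -0.43 to 0.31 for Id1 minus Id3, -0.15 to 0.47 for Id1 minus Id4 and -0.22 to 1.11 for Id2 minus Id3. Of the other 47 named genes, 36 kept their sign wherever they were tested, and the difference of 30 moved by over 1.5 times without at least 1 single array. Restricting the lists to genes above background in both groups, chosen after seeing the data, moved only the median of the BMP target genes by more than rounding, to -0.33. Signals near background limit what Id4 can show in CKO.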
